A study of Homo sapiens with 6 samples.

Results

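The genes described here are 8 genes of polyamine metabolism, several of them known for control at the level of the mRNA. They are the antizymes OAZ1 and OAZ2, the antizyme inhibitor AZIN1, ornithine decarboxylase ODC1 and S-adenosylmethionine decarboxylase AMD1. The others are spermidine synthase SRM, spermine synthase SMS and spermidine/spermine N1-acetyltransferase SAT1. The 8 genes were taken by symbol from the deposited count table, which holds 26364 genes. All 8 were found and passed the filter on low counts. The p-UPF1 IP group (n = 3, replicates 3, 6 and 9) is RNA immunoprecipitated with an antibody against phosphorylated UPF1, the helicase of nonsense-mediated mRNA decay (NMD). The pre-IP group (n = 3, replicates 1, 4 and 7) is titled as RNA from before the precipitation, but its antibody label names rabbit IgG, so input RNA and a mock precipitation cannot be told apart for this control. Every library of both groups came from HEK293T, a human cell line of embryonic kidney origin, exposed to okadaic acid at 200 nM for 3 h, a phosphatase inhibitor under which phosphorylated UPF1 accumulates. There was no group without the inhibitor. RNA fragments were ligated to adapters at both ends and sequenced, and the fragments of a gene were counted together.

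Polyamines (putrescine, spermidine and spermine) are small cations that bind RNA and are needed for growth. ODC1 makes putrescine from ornithine, AMD1 supplies the aminopropyl donor, SRM and SMS add aminopropyl groups in turn, and SAT1 acetylates the products for export or breakdown. When polyamines are plentiful, ribosomes shift frame on antizyme mRNA, and the full antizyme then binds ODC1 and takes it to the proteasome. AZIN1, an inactive relative of ODC1, binds antizyme in its place. Several of these mRNAs carry a stop codon ahead of the end of the main reading frame: the antizyme mRNAs in their short first reading frame, AMD1 in an upstream reading frame, and SAT1 in an alternative exon that is known as a poison exon.

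Those early stop codons are shown because NMD acts on stop codons that lie ahead of exon-exon junctions. The sequences are from GENCODE release 29 transcripts (GRCh38), a later build than the hg19 of the count table, and no read of this study was placed on them. In the antizyme lines the capitals mark the stop codon of the first reading frame, whose first base is skipped when the ribosome shifts. In the AMD1 line they mark the whole upstream reading frame, and in the SAT1 line the first in-frame stop codon within the alternative exon.
OAZ1 frameshift site, coding exon, chr19:2271430-2271459, plus strand: tcggtggtgctccTGAtgcccctcacccac
OAZ2 frameshift site, coding exon, chr15:64691499-64691528, minus strand: tctgtggtgctccTGAtgcccctcacccac
AMD1 upstream reading frame, 5' UTR, chr6:110874792-110874820, plus strand: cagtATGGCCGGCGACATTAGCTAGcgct
SAT1 start of the alternative exon, chrX:23784294-23784323, plus strand: gttacagtctcTAGcttcgccatgtacatg

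The antizyme windows were equal at 29 of 30 bases and differed by G3T (the base in OAZ1, its position counted from 1 at the 5' end of the window, then the base in OAZ2). In the principal transcript of OAZ1, 3 exon-exon junctions follow the stop of the first reading frame, the last of them 344 nt downstream, and in OAZ2 also 3, the last 341 nt downstream. The AMD1 upstream frame has 6 codons and a stop, with 8 junctions after it. The SAT1 exon is 110 nt long, is held by 1 of the 9 annotated SAT1 transcripts, and has 3 junctions after its stop. The deposited counts are summed per gene, so they do not separate transcripts with and without that exon, or ribosomes that did and did not shift.

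Libraries held from 905926 to 2057647 counts in p-UPF1 IP and from 600244 to 1179369 in pre-IP. The 8 genes together had 937 to 1752 counts in the p-UPF1 IP libraries and 311 to 892 in the pre-IP libraries, which limits the precision for the thinner of them. Of 7 genes fixed as markers that HEK293T cells express, 6 had counts in each p-UPF1 IP library and 4 to 6 in each pre-IP library, with SOX11 at 0 in all. Their summed level was 933 to 1082 CPM (counts relative to the library total, in the usual CPM unit) in p-UPF1 IP and 172 to 252 in pre-IP. Most of these counts were of VIM, with 1510, 1527 and 720 in the p-UPF1 IP libraries and 209, 90 and 120 in the pre-IP libraries. The sum is thus mainly a measure of 1 gene. Of 16 markers of blood, liver, fibroblasts, muscle and epidermis, 1 or 2 had counts in each p-UPF1 IP library and 0 or 1 in each pre-IP library, with a summed level of 3.31 to 6.80 and of 0 to 6.35 CPM in the same order. The part of these levels in the results below was not tested. The labels do not say whether replicates were separate cultures, and p-values measure only how far these libraries spread, which could be technical.

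Relative to other mRNAs, 4 of the 8 genes were lower in p-UPF1 IP and 0 were higher. The 4 were SMS, OAZ1, ODC1 and AMD1, at folds from 4.47-fold to 1.84-fold lower, while OAZ2, AZIN1, SRM and SAT1 did not pass the test. Levels are given as CPM scaled by the trimmed mean of M-values (TMM), and the test is edgeR's quasi-likelihood F-test with Benjamini-Hochberg adjustment over all 8070 genes tested, at 0.05. Among all tested genes 10.9% were called lower and 8.81% higher. The median log2 fold change was -0.67 over the 8 genes and 0.10 over all tested genes. Lower here means a smaller part of the p-UPF1 IP libraries than of the pre-IP libraries, relative to other mRNAs. It does not mean less of an RNA per cell, since both groups came from the same cell line under the same treatment. Differences between the cells of a lysate cannot be seen in either group.

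The level depends on the scaling more than on any other choice. The TMM factors ran from 1.53 to 2.04 in p-UPF1 IP and from 0.469 to 0.672 in pre-IP, and with library totals alone, in place of TMM, the median log2 fold change of all tested genes was 1.63. On that scale 0 of the 8 genes were called lower and 4 higher (OAZ2, AZIN1, SRM and SAT1), where 1.93% of all tested genes were called lower and 60.4% higher. Every direction below is therefore relative to the typical tested gene under TMM. On library totals the log2 fold changes of ODC1, AMD1, AZIN1 and SAT1 turn positive, and those of OAZ1 and SMS stay below 0 without passing the test.

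**Figure D1:**
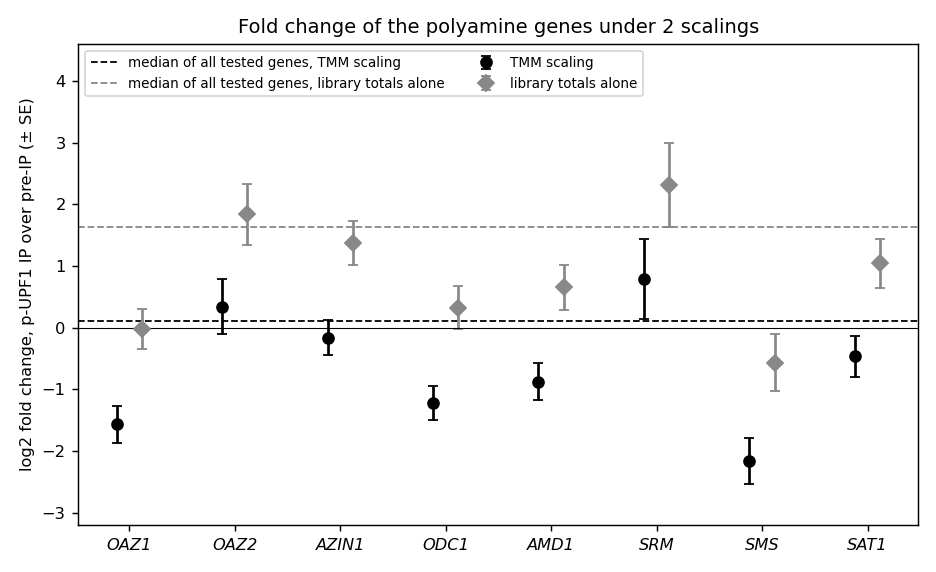
Log2 fold change of each gene, p-UPF1 IP over pre-IP, with its standard error (SE), under TMM scaling (black circles) and with library totals alone (grey diamonds); n = 3 libraries in each group. Dashed lines give the median of all 8070 tested genes under each scaling, at 0.10 and 1.63. SMS, OAZ1, ODC1, AMD1 and SAT1 lie below their dashed line by more than the SE under either scaling, though SAT1 was not called under TMM. AZIN1 lies below it by less than the SE. SRM lies above it by slightly more than the SE, and OAZ2 by less than the SE.

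Of the antizymes, which bind ODC1 and bring about its degradation, OAZ1 was called lower and OAZ2 was not called. OAZ1 had 96.8, 147 and 87.8 TMM-scaled CPM in the p-UPF1 IP libraries (replicates 3, 6 and 9), against 278, 383 and 330 in the pre-IP libraries (replicates 1, 4 and 7). All 3 p-UPF1 IP libraries were lower than all 3 pre-IP libraries. The log2 fold change was -1.57 (SE 0.31, adjusted p = 0.00192), or 2.97-fold lower. On library totals alone OAZ1 had 182 ± 33.4 CPM in p-UPF1 IP and 188 ± 12.5 CPM in pre-IP (SD, n = 3 each), with overlapping groups (log2 fold change -0.02, adjusted p = 0.958 by edgeR). OAZ1 thus took about as large a part of the whole library in either group, while the typical mRNA took a larger part in p-UPF1 IP.

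OAZ2, the less abundant antizyme, had 29.6, 54.2 and 30.8 TMM-scaled CPM in the p-UPF1 IP libraries, against 42.2, 32.2 and 15.6 in the pre-IP libraries. The groups overlapped, with the highest level in p-UPF1 IP replicate 6 and the lowest in pre-IP replicate 7. Its log2 fold change was 0.34 (SE 0.45, adjusted p = 0.638). OAZ2 rested on 301 counts in p-UPF1 IP and 51 in pre-IP. With 1 library left out its log2 fold change ran from -0.0012 (without p-UPF1 IP replicate 6) to 0.80 (without pre-IP replicate 1).

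A ratio of counts within a library does not depend on the scaling. The ratios given here and below are not adjusted for transcript length, in which the paired genes differ (1148 nt for OAZ1 and 1934 nt for OAZ2). There were 3.27, 2.70 and 2.85 OAZ1 counts per OAZ2 count in the p-UPF1 IP libraries, against 6.58, 11.9 and 21.2 in the pre-IP libraries. Each p-UPF1 IP ratio was below each pre-IP ratio, and the mean log2 ratio was 1.55 ± 0.14 in p-UPF1 IP and 3.57 ± 0.85 in pre-IP (SD, n = 3 each; two-sided exact permutation p = 0.1, adjusted 0.2 over 4 pairs). With 3 libraries against 3, no p below 0.1 can be had. Pre-IP replicates 4 and 7 held only 9 OAZ2 counts each, so the pre-IP ratios of this pair are imprecise. The 4 pairs were OAZ1 with OAZ2, ODC1 with AZIN1, OAZ1 with ODC1 and AMD1 with ODC1. For AMD1 and ODC1 the groups overlapped (two-sided exact permutation p = 0.3, adjusted 0.3). SMS with SRM was a further pair, left untested because SRM had 0 counts in pre-IP replicate 7. All pairs were chosen after their values were seen.

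AZIN1, which frees ODC1 by binding antizyme, did not pass the test. It had 107, 151 and 133 TMM-scaled CPM in the p-UPF1 IP libraries, against 168, 136 and 133 in the pre-IP libraries. The groups overlapped (log2 fold change -0.17, SE 0.28, adjusted p = 0.728). Of all tested genes, 40.6% had a lower log2 fold change. With 1004 counts in p-UPF1 IP and 246 in pre-IP, AZIN1 was the most counted of the 8 genes in p-UPF1 IP.

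ODC1, the enzyme that commits ornithine to polyamines, was lower in p-UPF1 IP. It had 119, 114 and 116 TMM-scaled CPM in the p-UPF1 IP libraries, against 325, 265 and 223 in the pre-IP libraries. The p-UPF1 IP libraries lay close together and below every pre-IP library. Its log2 fold change was -1.22 (SE 0.28, adjusted p = 0.00588), or 2.33-fold lower. The call held in 16 of 17 alternatives, and on library totals alone the log2 fold change was 0.33 (adjusted p = 0.405). The snoRNA gene SNORA80B lies inside ODC1 and has a row of its own with 7084 counts in p-UPF1 IP and 3370 in pre-IP. Under TMM SNORA80B was also called lower in p-UPF1 IP (log2 fold change -1.48, SE 0.47, adjusted p = 0.0355 by edgeR). It overlaps 0 annotated ODC1 exons.

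ODC1 and its inactive relative AZIN1 also separated within libraries. There were 1.11, 0.757 and 0.870 ODC1 counts per AZIN1 count in the p-UPF1 IP libraries, against 1.94, 1.95 and 1.68 in the pre-IP libraries. The groups did not overlap, with mean log2 ratios of -0.15 ± 0.28 in p-UPF1 IP and 0.89 ± 0.12 in pre-IP (SD, n = 3 each; two-sided exact permutation p = 0.1, adjusted 0.2). For the antizyme OAZ1 and its target ODC1 the ratios overlapped, at 0.815, 1.28 and 0.758 OAZ1 counts per ODC1 count in p-UPF1 IP against 0.854, 1.45 and 1.48 in pre-IP (exact permutation p = 0.2, adjusted 0.267).

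AMD1, which makes the aminopropyl donor and whose upstream reading frame is printed above, was lower by a narrow margin. It had 52.2, 79.4 and 59.3 TMM-scaled CPM in the p-UPF1 IP libraries, against 123, 111 and 116 in the pre-IP libraries. The pre-IP libraries were close to each other and above every p-UPF1 IP library. The log2 fold change was -0.88 (SE 0.30, adjusted p = 0.0464), or 1.84-fold lower. The call was lost in 10 of 17 alternatives, among them each library left out in turn (adjusted p from 0.0573 without p-UPF1 IP replicate 6 to 0.206 without p-UPF1 IP replicate 3), and with library totals alone the log2 fold change was 0.66. AMD1 has 4 annotated pseudogenes, and how reads shared with them were counted is not given in the sources used here.

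SRM makes spermidine and SMS turns it into spermine. Of the pair, SMS was called lower and SRM was not called. SMS had 19.2, 12.4 and 22.4 TMM-scaled CPM in the p-UPF1 IP libraries, against 79.3, 96.7 and 67.4 in the pre-IP libraries. Its lowest pre-IP library was above its highest p-UPF1 IP library by a factor larger than the spread in either group. The log2 fold change of -2.16 (SE 0.37, adjusted p = 0.000771), or 4.47-fold lower, was the lowest of the 8 genes, and 3.58% of all tested genes had a lower one. On library totals alone SMS was at -0.57 (adjusted p = 0.275).

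SRM had 37.0, 26.9 and 29.1 TMM-scaled CPM in the p-UPF1 IP libraries, against 29.4, 25.1 and 0 in the pre-IP libraries. The groups overlapped, and 0 counts in pre-IP replicate 7 allow up to 3.17 CPM of that library's total. The log2 fold change was 0.79 (SE 0.65, adjusted p = 0.423), on 247 counts in p-UPF1 IP and 30 in pre-IP. With 1 library left out it ran from 0.19 (without pre-IP replicate 7, adjusted p = 0.802) to 1.75 (without pre-IP replicate 1, adjusted p = 0.147), and limma-voom gave 1.85 (adjusted p = 0.128). SRM has 2 annotated pseudogenes, whose reads may be shared with it.

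The SMS and SRM counts were in opposite order in the groups. SMS had 63, 34 and 40 counts beside 121, 74 and 52 of SRM in the p-UPF1 IP libraries, and 62, 27 and 39 beside 23, 7 and 0 of SRM in the pre-IP libraries. SRM was the more counted of the pair in each p-UPF1 IP library and SMS in each pre-IP library.

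SAT1, which acetylates spermidine and spermine and whose alternative exon is printed above, did not pass the test. It had 69.0, 52.8 and 45.9 TMM-scaled CPM in the p-UPF1 IP libraries, against 97.2, 64.5 and 67.4 in the pre-IP libraries. The groups overlapped, since p-UPF1 IP replicate 3 lay above 2 of the pre-IP libraries. Its fitted log2 fold change was -0.47 (SE 0.33, adjusted p = 0.334). It had the other sign with the trend of transcript length removed (0.26, adjusted p = 0.641) and with library totals alone (1.04, adjusted p = 0.0282).

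**Figure D2:**
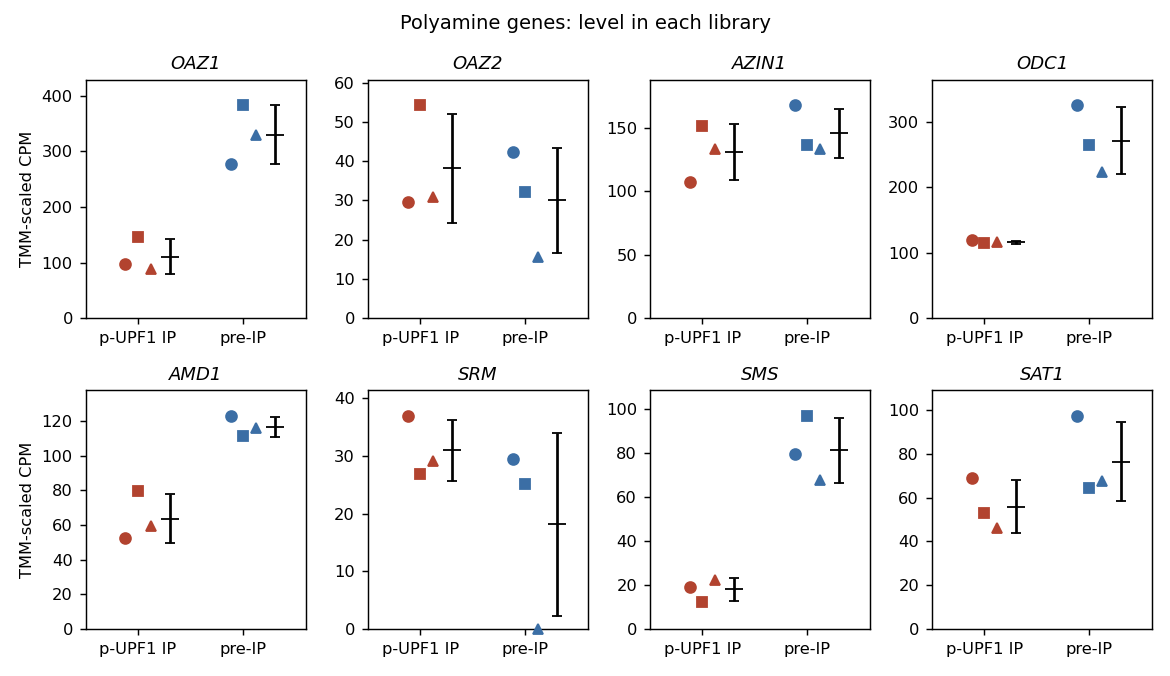
TMM-scaled CPM of each gene in each of the 6 libraries, p-UPF1 IP in red and pre-IP in blue, with the mean and SD (n = 3) in black; circles, squares and triangles are p-UPF1 IP replicates 3, 6 and 9 and pre-IP replicates 1, 4 and 7. A symbol that both groups share does not mark a pair of libraries. The groups do not overlap for OAZ1, ODC1, AMD1 and SMS, and overlap for OAZ2, AZIN1, SRM and SAT1.

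Over the 8 genes, 4 had p-UPF1 IP libraries that all lay below all pre-IP libraries, and 0 had them all above. Among all tested genes these shares were 17.7% and 21.9%.

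Each gene's share of the summed counts of the 8 genes needs no scaling between libraries. It is another comparison than that under TMM, since it sets a gene against the rest of the 8 and not against the typical tested gene. AZIN1 took 20.2%, 23.7% and 25.4% in the p-UPF1 IP libraries, against 14.7%, 12.2% and 14.0% in the pre-IP libraries. OAZ1 took 18.3%, 23.0% and 16.8% in p-UPF1 IP, against 24.3%, 34.4% and 34.7% in pre-IP. OAZ1 was thus the largest or the next largest part of every pre-IP library, and AZIN1 the largest part of p-UPF1 IP replicates 6 and 9.

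The shares of OAZ2, AZIN1 and SRM were higher in every p-UPF1 IP library than in any pre-IP library, and those of OAZ1, ODC1 and SMS lower. SMS averaged 3.28% ± 1.20 in p-UPF1 IP and 7.57% ± 0.965 in pre-IP (SD, n = 3 each). OAZ2 averaged 6.66% ± 1.61 in p-UPF1 IP and 2.74% ± 1.04 in pre-IP. For these 6 genes the two-sided exact permutation p was 0.1, the smallest that 3 libraries against 3 allow (Benjamini-Hochberg 0.133 over the 8 genes). AMD1 averaged 11.2% ± 1.30 in p-UPF1 IP and 11.0% ± 1.11 in pre-IP (exact permutation p = 0.8), and SAT1 10.0% ± 2.62 and 7.13% ± 1.37 in the same order (exact permutation p = 0.2). The shares sum to a whole, so a lower share of OAZ1 raises the others. SRM had 0 of the 551 counts of the 8 genes in pre-IP replicate 7, which allows a share of up to 0.544%.

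**Figure D3:**
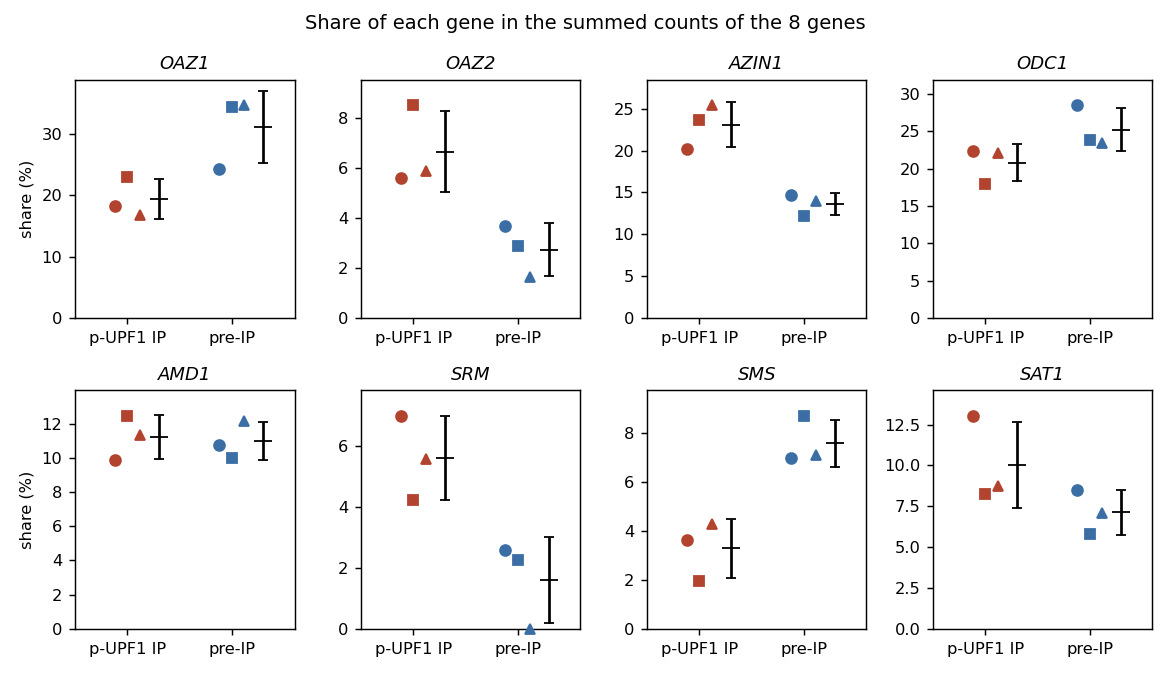
Share of each gene in the summed counts of the 8 genes, in percent, in each library; colours, symbols and error bars (mean and SD, n = 3) as in the plot of levels. Shares of OAZ1, ODC1 and SMS are lower and those of OAZ2, AZIN1 and SRM higher in all 3 p-UPF1 IP libraries, while AMD1 is at 11.2% in p-UPF1 IP and 11.0% in pre-IP.

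Levels of different genes were compared as TMM-scaled CPM per kb of the principal transcript. OAZ1 was the highest in both groups, at 96.2 ± 27.6 CPM per kb in p-UPF1 IP and 288 ± 45.9 in pre-IP (SD, n = 3 each), and its libraries overlapped those of no other gene of the 8. In p-UPF1 IP the order below OAZ1 was SAT1 (52.5), ODC1 (43.8), AZIN1 (27.6), SRM (24.5), OAZ2 (19.8), AMD1 (18.5) and SMS (9.80). Of the neighbours in that order, SAT1 and ODC1 overlapped, as did AZIN1 and SRM, SRM and OAZ2, and OAZ2 and AMD1. In pre-IP it was ODC1 (102), SAT1 (71.7), SMS (44.2), AMD1 (33.9), AZIN1 (30.8), OAZ2 (15.5) and SRM (14.3). There ODC1 and SAT1, AMD1 and AZIN1, and OAZ2 and SRM overlapped. SMS stood above AMD1, AZIN1, OAZ2 and SRM in pre-IP and last in p-UPF1 IP.

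The transcripts of the 8 genes are of unlike build. Their principal transcripts run from 1065 nt (SAT1) to 4721 nt (AZIN1), where the median over tested genes with such a transcript is 3606 nt. AZIN1 has the longest 5' UTR, at 1164 nt with 6 upstream ATG codons, and OAZ1 and SRM the shortest, at 79 and 81 nt with 0 upstream ATG codons. Of the 8 genes 6 have an upstream ATG, as do 52.4% of 7466 tested genes. GENCODE types at least 1 transcript as a target of NMD for 3 of the 8 genes (OAZ1, AMD1 and SRM), as for 46.3% of those tested genes. Of these 3, OAZ1 and AMD1 were called lower and SRM was not called. Upstream ATG codons were present in ODC1, AMD1 and SMS, which were called lower, and in OAZ2, AZIN1 and SAT1, which were not.

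Longer mRNAs were higher in p-UPF1 IP across all genes, so each gene was also set against genes of its length. The median log2 fold change was -0.87 over the 721 tested genes under 1500 nt, -0.08 over 2240 genes from 1500 to 3000 nt and 0.28 over 3008 genes from 3000 to 6000 nt. OAZ1, a short mRNA of 1148 nt, had 24.8% of genes of its length class below it. SMS had 1.88% of its class below it, ODC1 10.8% and AMD1 11.4%. Under TMM 32.0% of the class of OAZ1 were called lower, 8.97% of that of SMS and ODC1, and 3.92% of that of AMD1. SRM, at 1266 nt, lay above 92.2% of its class.

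With the length trend removed within the fit, the same 4 genes were called lower and 0 higher, where 7.95% of 7790 genes were called lower and 4.49% higher. OAZ1 moved to a log2 fold change of -0.91 (adjusted p = 0.0456), the largest shift among the 4. SMS remained the lowest of the 8 (adjusted p = 0.00216), with ODC1 at -1.36 (adjusted p = 0.00283) and AMD1 at -1.16 (adjusted p = 0.0170). SRM was at 1.35 (adjusted p = 0.178).

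**Figure D4:**
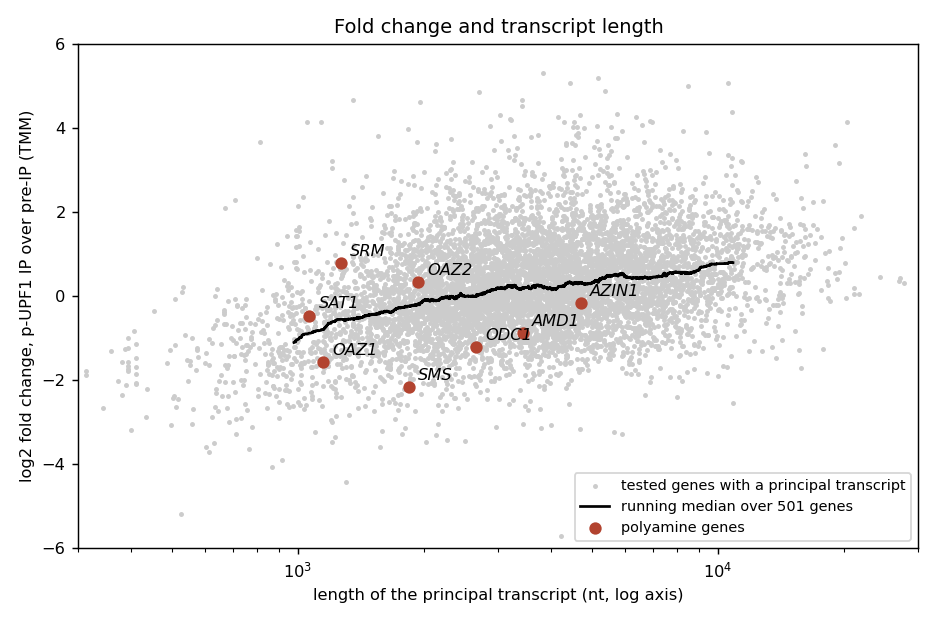
Log2 fold change under TMM, p-UPF1 IP over pre-IP, against the length of the principal transcript (log axis) for 7466 tested genes (grey), with a running median over genes ordered by length (black) and the 8 polyamine genes (red); 31 genes lie outside the axes. SMS, ODC1, AMD1 and OAZ1 lie below the running median and SRM above it.

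Of 25 other genes of the polyamine pathway, 16 were tested, 2 were higher and 1 was lower in p-UPF1 IP. Among all tested genes 8.81% were called higher and 10.9% lower, and counts this small are not set apart from those shares. The list covers ornithine and methionine supply, transport, breakdown and the spermidine-dependent modification of EIF5A. Its median log2 fold change was -0.24, against 0.10 over all tested genes. SLC7A1, the main importer of arginine, had 469 ± 71.3 TMM-scaled CPM in p-UPF1 IP and 189 ± 60.2 in pre-IP (SD, n = 3 each; log2 fold change 1.32, SE 0.34, adjusted p = 0.0110). It was the most counted gene of the list, and its call was lost with the length trend removed (0.65, adjusted p = 0.194) and without pre-IP replicate 1 (adjusted p = 0.0663). ATP13A2, a lysosomal exporter of polyamines, had 117, 65 and 38 counts in the p-UPF1 IP libraries and 1, 0 and 0 in the pre-IP libraries. It passed the filter on low counts only through the p-UPF1 IP libraries, where it was high. Its call as higher was nearly fixed by that filter and is given as a description only. Its ratio over TMM-scaled library sizes was 46.2, with an exact 95% counting interval of 8.20 to 1833, which does not allow for that selection.

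MAT2B, the regulatory subunit of the enzyme that makes S-adenosylmethionine, was the gene of the list called lower. It had 5.19, 6.55 and 8.95 TMM-scaled CPM in the p-UPF1 IP libraries, against 39.7, 21.5 and 25.9 in the pre-IP libraries (log2 fold change -2.12, SE 0.58, adjusted p = 0.0163). Its call was lost without p-UPF1 IP replicate 3, 6 or 9 or pre-IP replicate 1 (adjusted p from 0.0505 to 0.0913) and with library totals alone (-0.59, adjusted p = 0.440). For the catalytic subunit MAT2A, upstream of AMD1, the log2 fold change came to 0.25 (adjusted p = 0.603). SLC3A2, a subunit of amino acid transporters, had 0.47 (adjusted p = 0.310), and OAT, which joins ornithine to glutamate metabolism, 0.35 (adjusted p = 0.461). The antizyme OAZ3, which in mammals belongs to the testis, had 0 counts in all 6 libraries.

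**Figure D5:**
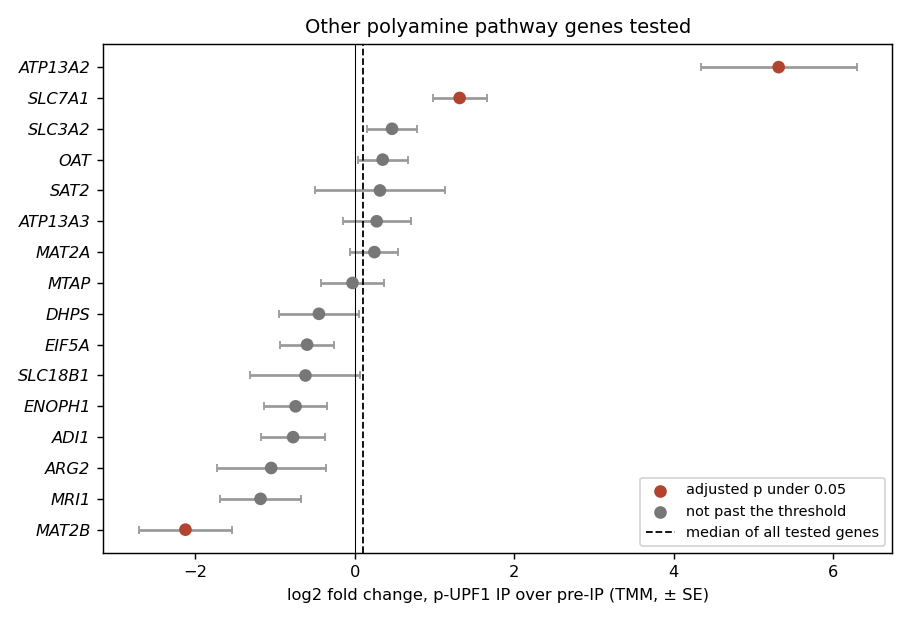
Log2 fold change under TMM, p-UPF1 IP over pre-IP, with SE, of the 16 other polyamine pathway genes tested (n = 3 libraries in each group); red marks an adjusted p under 0.05 and the dashed line the median of all tested genes at 0.10. ATP13A2 and SLC7A1 were called higher and MAT2B lower. The fitted value of ATP13A2 rests on 1 count in pre-IP, and that gene passed the filter on low counts only through p-UPF1 IP.

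The tested gene of like abundance with the nearest pattern over the 6 libraries was found for each of the 8. Likeness was the root mean square difference of log2 CPM after each gene was centred on its mean. For AZIN1 it was NGRN, at 0.0727, the closest match. ODC1 was nearest to RPS25 (0.121), OAZ1 to SCARNA20 (0.125), AMD1 to TP53BP2 (0.116), SAT1 to DDX46 (0.101) and SMS to POLR2F (0.159). The thinly counted OAZ2 and SRM had looser matches, RASEF (0.177) and LIMD1 (0.214).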

How the data were processed

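The deposited table holds raw counts, as whole numbers that were not normalized, with 1 row per gene symbol and 1 column per library. The submitters' processing notes name STAR 2.5.2b, Subread 1.5.0p3 (with featureCounts), cutadapt 1.15 and the build hg19. For the gene annotation, the strand setting and multi-mapped reads, nothing is given in the sources used here, so reads of near-identical copies and of overlapping genes may be shared. Per the labels' protocols, RNA was depleted of rRNA, ligated to adapters and amplified over 20 PCR cycles. No molecular identifiers are described, so intervals and floors (3 counts) cover counting error only.

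After TMM scaling, edgeR 4.0.16 (under R 4.3.3) gave the main test, its quasi-likelihood F-test. Genes were kept by filterByExpr at a minimum of 10 counts and called at a Benjamini-Hochberg adjusted p under 0.05. The SE is the log2 fold change divided by the square root of F. Alternatives were other scalings and filters, DESeq2 1.42.0, limma-voom (limma 3.58.1), classes of genes left out, a trend of transcript length removed, and each library left out. Lengths are of the longest APPRIS principal transcript in GENCODE release 29.

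The genes, lists and pairs were chosen with earlier results of these data known. Named beyond the 8 genes were pathway genes past the threshold, the 4 most counted pathway genes, and for each of the 8 genes the tested gene with the nearest pattern. OAZ3, SNORA80B (inside ODC1) and the marker SOX11 fall outside that rule and were named after their values were seen.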

Additional observations from a re-analysis of the deposited data

How the results depend on the processing

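With library totals alone 4 of the 8 genes were called higher and 0 lower. The log2 fold changes were then -0.021 for OAZ1 and -0.57 for SMS (neither called), 1.84 for OAZ2 and 2.31 for SRM (both called), 1.38 for AZIN1, 0.33 for ODC1, 0.66 for AMD1 and 1.04 for SAT1. Among the other pathway genes 8 were called higher and 0 lower on that scale, and among all genes 4874 higher and 156 lower. In the other alternatives the calls of OAZ1, ODC1 and SMS held. That of AMD1 was lost with RLE scaling (-0.85), upper-quartile scaling (-0.84), no filter (-0.70) and each library left out (-1.08 to -0.76), so 3 of the 8 genes were then called lower. Of the genes not called, AZIN1 reached 0.0087 with no filter, SAT1 0.26 with the length trend removed, and OAZ2 -0.0012 to 0.80 with a library left out. The AMD1 share difference ran from -0.38 to 0.91 percentage points with a library left out.

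The pathway list had 1 gene higher with the length trend removed and 1 to 2 higher with a library left out. It had 2 lower with no filter, with small structured RNAs or the 10 most counted genes left out and with protein-coding genes alone, an alternative added after seeing the data, 0 with a minimum count of 30, and 0 to 2 with a library left out. Over all genes 1101 were higher with no filter and 350 with the length trend removed, and 273 to 795 were higher and 518 to 833 lower with a library left out. No paired analysis was run, because the groups share no replicate number and the labels do not say that any of the numbers belong together. Pairs could only have been inferred from the order of the numbers.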
